A study of Mus musculus with 4 samples.

Results

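Genes of the cells that wrap brain vessels and of the fibroblasts of the meninges were examined in the hippocampus of mice with and without repeated social defeat stress (R-SDS). The list held 33 genes, chosen by symbol, and all 33 were measured among the 19938 genes that the arrays name. It consisted of 9 pericyte or shared mural genes, 5 smooth muscle genes and 19 fibroblast genes, and each gene had a single row in the table. The samples were 4 male C57BL/6JJmsSlc mice of 11 to 12 weeks, 1 array per mouse. The 2 R-SDS mice each met an aggressive male ICR mouse for 10 min a day on 10 days, with the pairs drawn anew each day. In between they lived beside an ICR mouse behind a partition. The study describes these R-SDS mice as susceptible, that is, as avoiding an ICR mouse in a later test. The 2 Control mice were kept in pairs in divided cages with no defeat. Each sample was dissected hippocampal tissue, which contains vessels and borders on meninges and ventricle, and in such bulk samples fewer cells of a type cannot be told apart from less RNA per cell.

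Pericytes sit on capillaries inside the vascular basement membrane and are held there by platelet-derived growth factor from the endothelium, which acts on their receptor Pdgfrb. Smooth muscle cells surround arterioles and contract through actin and myosin. Meningeal and perivascular fibroblasts lie in the pia, the arachnoid and around larger vessels, where they lay down collagens and small leucine-rich proteoglycans and carry organic solutes. The list was checked against the data. The members Pdgfrb, Acta2, Dcn and Col1a1 lay above the lower quartile of their array on all 4 arrays, whereas Lum lay below it on 3 arrays, Cnn1 on 2 and Des on 1. The 10 neuron genes used to check the tissue had a summed linear signal of 21420 to 22984. All gene values are log2 values from RMA, an array normalisation that returns a summary per probe set, and are printed for replicate number 1 first and number 2 second. Differences are R-SDS minus Control on that scale. The value distribution was wider in the arrays of replicate number 1 (interquartile range 3.34 and 3.37) than in those of number 2 (3.06 and 3.11), and the differences within each number are therefore given beside the group difference.

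The comparison asked whether these vascular and meningeal genes differ in the hippocampus of R-SDS mice. None of the 33 genes was called (0 at an adjusted p of 0.05 in limma, 0 at its unadjusted p under 0.05, and 0 at that level in the methods' t-test). Over all 21789 rows with a single gene symbol, limma called 0 percent at the adjusted p and 1.01 percent at the unadjusted p, and the t-test took 2.02 percent. With the replicate number as a block, 6 members had an unadjusted p under 0.05 (Abcc9, Vtn, Acta2, Ogn, Fmod and Mgp), where 4.81 percent of all rows did, and 0 passed the adjusted p. The labels do not say that a number pairs mice, and the block leaves 1 residual degree of freedom. The members are not independent of each other, and these shares were not compared by a test. The study used a log2 difference over 0.5 together with an unadjusted p under 0.05, and 0 members met both, against a background of 0.147 percent of rows for higher and 0.193 percent for lower values. The lowest unadjusted p among the members was 0.0537, for Abcc9. With 2 arrays against 2, an exact permutation test cannot give a two-sided p below 0.333, and a gene that was not called is not shown to be unchanged.

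The mural and the fibroblast genes were spread over the arrays in unlike ways. R-SDS values lay above both controls in 7 of the 33 members, namely Abcc9, Higd1b, Rgs5, Acta2, Des, Myh11 and Dcn, where 9.41 percent of all rows did so, and below both controls in 0, against 9.06 percent. Of these 7 genes, 6 were mural and 1 was a fibroblast gene. After quantile normalisation 4 of them remained (Abcc9, Higd1b, Acta2 and Dcn), and median centring took out Acta2 and Myh11 and brought in Notch3, so that Abcc9, Higd1b and Dcn were above both controls under all 3 scalings. The median difference was 0.14 for the pericyte members, 0.098 for the smooth muscle members and 0.21 for the fibroblast members, beside 0.0089 over all genes. Within number 1 the medians were 0.24, 0.24 and 0.31. Within number 2 they were 0.14, 0.11 and -0.0016. The fibroblast genes thus had a higher median than the mural genes within number 1 and a lower one within number 2, while both mural medians were positive within either number. A positive median within either number was not particular to mural genes. Brain endothelial genes (0.13 and 0.082) and astrocyte genes (0.12 and 0.084) had it too. Of the lists nearest to the fibroblast members, other meningeal genes also had it (0.25 and 0.11). Other fibrillar matrix genes did not (0.17 and -0.061). The classes hold genes, which are not replicates, and their difference was not tested.

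**Figure D1:**
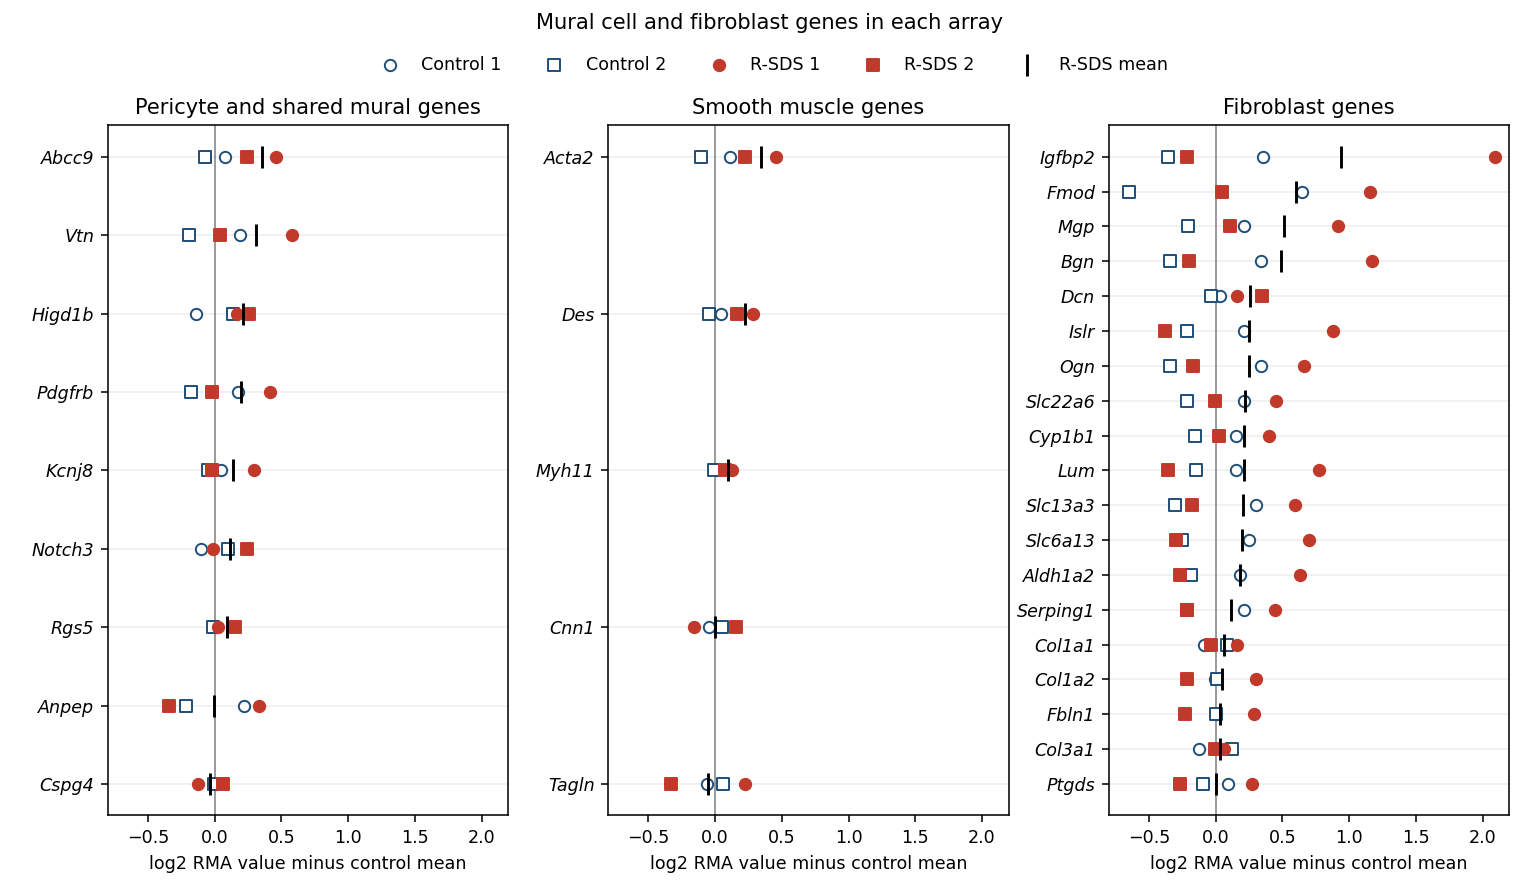
Log2 RMA value minus the mean of the 2 controls (horizontal axes) for each member gene (rows, ordered by the group difference) in 3 panels for pericyte, smooth muscle and fibroblast genes. Open symbols are Control and filled symbols R-SDS arrays, circles number 1 and squares number 2, and the black bar is the R-SDS mean. R-SDS 1 is the rightmost array in 17 of the 19 fibroblast genes and in 9 of the 14 genes of the other panels.

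Among the pericyte genes, both subunits of the vascular ATP-sensitive potassium channel were in the list, and they differed in how far the groups were apart. Abcc9, which encodes the SUR2 subunit of this channel, measured 6.75 and 6.60 in controls and 7.13 and 6.92 under R-SDS. Both R-SDS arrays lay above both controls, and the difference was 0.35 (SE 0.15, 95% interval -0.0077 to 0.71; limma adjusted p = 1). It was 0.39 within number 1 and 0.32 within number 2, and it stayed positive without any single array, from 0.24 without R-SDS 1 to 0.46 without R-SDS 2. Kcnj8, the pore-forming Kir6.1 subunit and the next protein-coding gene beside Abcc9 on the chromosome, measured 6.38 and 6.28 in controls and 6.62 and 6.31 under R-SDS. Here R-SDS 2 lay between the controls, so that the groups overlapped, and the difference of 0.14 (SE 0.16) rested on R-SDS 1 (0.25 within number 1 against 0.028 within number 2; -0.018 without R-SDS 1).

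The sequences upstream of these subunit genes are shown together with those of the smooth muscle genes Acta2 and Des, since Abcc9, Acta2 and Des had both R-SDS arrays above both controls and Kcnj8 is the neighbour that did not. Each run holds the 250 bases before the RefSeq transcript start in GRCm38.p6, 5′ to 3′ on the strand of the gene, and capitals mark a CArG box, the site of serum response factor, with at most 1 base of its A/T core replaced.
Abcc9 (chr6:142702275-142702524, minus strand): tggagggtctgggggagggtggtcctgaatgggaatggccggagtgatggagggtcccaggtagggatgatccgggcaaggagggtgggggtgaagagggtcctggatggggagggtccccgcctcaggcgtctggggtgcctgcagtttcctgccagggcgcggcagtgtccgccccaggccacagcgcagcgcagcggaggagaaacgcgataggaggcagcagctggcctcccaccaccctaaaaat
Kcnj8 (chr6:142571615-142571864, minus strand): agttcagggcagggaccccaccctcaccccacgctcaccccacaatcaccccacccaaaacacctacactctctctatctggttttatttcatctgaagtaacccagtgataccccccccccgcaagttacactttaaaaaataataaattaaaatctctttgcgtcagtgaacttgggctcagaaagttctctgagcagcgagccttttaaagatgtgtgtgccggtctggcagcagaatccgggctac
Acta2 (chr19:34255374-34255623, minus strand): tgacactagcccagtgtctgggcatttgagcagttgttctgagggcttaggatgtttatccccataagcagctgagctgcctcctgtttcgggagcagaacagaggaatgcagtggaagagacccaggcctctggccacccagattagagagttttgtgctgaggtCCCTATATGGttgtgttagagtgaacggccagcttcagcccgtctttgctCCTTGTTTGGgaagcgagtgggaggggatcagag
Des (chr1:75360042-75360291, plus strand): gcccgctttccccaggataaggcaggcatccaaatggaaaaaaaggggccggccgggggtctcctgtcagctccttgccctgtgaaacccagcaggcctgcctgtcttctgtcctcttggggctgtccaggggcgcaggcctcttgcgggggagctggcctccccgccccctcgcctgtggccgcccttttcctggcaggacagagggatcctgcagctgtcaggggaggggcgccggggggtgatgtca
The promoter table held 24 of the 33 members, and among these an exact CArG box was found in 0 and the relaxed form in 2, Acta2 and Col1a2. In Acta2 it occurred at -84 and -34 from the RefSeq start. The motif reads alike on both strands in either form, and 8.59 percent of the 32851 promoters held the relaxed form, against 1.47 percent for the exact one. The 1464 measured genes with the relaxed form had a median difference of 0.018, beside 0.0097 for all 15614 measured genes with a promoter. A match is a description of the letters only.

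The receptor Pdgfrb, on which pericytes depend for recruitment, measured 7.84 and 7.48 in controls and 8.07 and 7.64 under R-SDS. Its R-SDS value exceeded the control of the same number in each case (0.24 and 0.16), but R-SDS 2 lay below Control 1, and the difference of 0.20 (SE 0.21) was smaller than its error. Vtn, the matrix glycoprotein vitronectin, followed the same order of arrays, with 8.88 and 8.51 in controls and 9.28 and 8.74 under R-SDS and differences of 0.39 and 0.23 within the numbers. Its group difference of 0.31 (SE 0.23) stood at 0.041 without R-SDS 1. Higd1b, a pericyte-enriched gene of the hypoxia-inducible domain family, measured 5.15 and 5.43 in controls and 5.46 and 5.55 under R-SDS. Both R-SDS arrays were above both controls by a narrow margin, and the difference was 0.21 (SE 0.15). Rgs5, a regulator of G-protein signalling widely used as a pericyte marker, measured 8.17 and 8.15 in controls and 8.19 and 8.31 under R-SDS. Its 2 control arrays and R-SDS 1 were nearly equal, and R-SDS 2 was the highest. Notch3, the Notch receptor of mural cells, was likewise highest in R-SDS 2, with 6.33 and 6.53 in controls and 6.42 and 6.68 under R-SDS, and its groups overlapped (difference 0.12, SE 0.16). The others showed less. Anpep, aminopeptidase N, followed the number and not the stress, with 6.04 and 5.60 in controls and 6.15 and 5.48 under R-SDS, and a difference of -0.0044 (SE 0.26). Cspg4, the proteoglycan NG2 that oligodendrocyte precursors also carry, differed by -0.031 (SE 0.14), with -0.13 and 0.068 within the numbers. Of 6 precursor genes, 6 had a lower mean under R-SDS (median -0.064), where 9275 of 19938 genes did. Within both numbers 3 of them were lower. The part of these cells in the Cspg4 values was not tested.

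Among the smooth muscle genes, Acta2, the smooth muscle actin, measured 7.66 and 7.44 in controls and 8.01 and 7.77 under R-SDS. R-SDS arrays lay above both controls, the difference was 0.34 (SE 0.16, 95% interval -0.04 to 0.72; limma adjusted p = 1), and it was 0.35 within number 1 and 0.33 within number 2. Des, the intermediate filament desmin, measured 4.95 and 4.86 in controls and 5.19 and 5.07 under R-SDS, with differences of 0.24 and 0.21 within the numbers and 0.22 (SE 0.13) between the groups. It was dim, with 1 array under the lower quartile. Myh11, the smooth muscle myosin heavy chain, was above both controls by little, with 6.34 and 6.33 in controls and 6.46 and 6.41 under R-SDS (difference 0.098, SE 0.13). The remaining contractile genes had differences of opposite sign in the 2 numbers. Tagln, the actin-binding protein transgelin, measured 5.43 and 5.55 in controls and 5.72 and 5.16 under R-SDS. R-SDS 1 was the highest and R-SDS 2 the lowest array, so that the differences within the numbers were of opposite sign (0.28 and -0.39). Cnn1, calponin 1, was opposite again (-0.11 and 0.11), with 4.94 and 5.04 in controls and 4.83 and 5.15 under R-SDS, values at the dim end of the scale. Of the 14 mural members 10 had a higher mean under R-SDS, or 12 after quantile normalisation, which turned the sign of Anpep and Cnn1. Within both numbers 10 were higher, where 27.3 percent of all rows were. The same held for 8 of 13 brain endothelial and 6 of 9 astrocyte genes. In separate lists it held for 4 of 12 other pericyte genes and 6 of 13 other contractile genes.

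**Figure D2:**
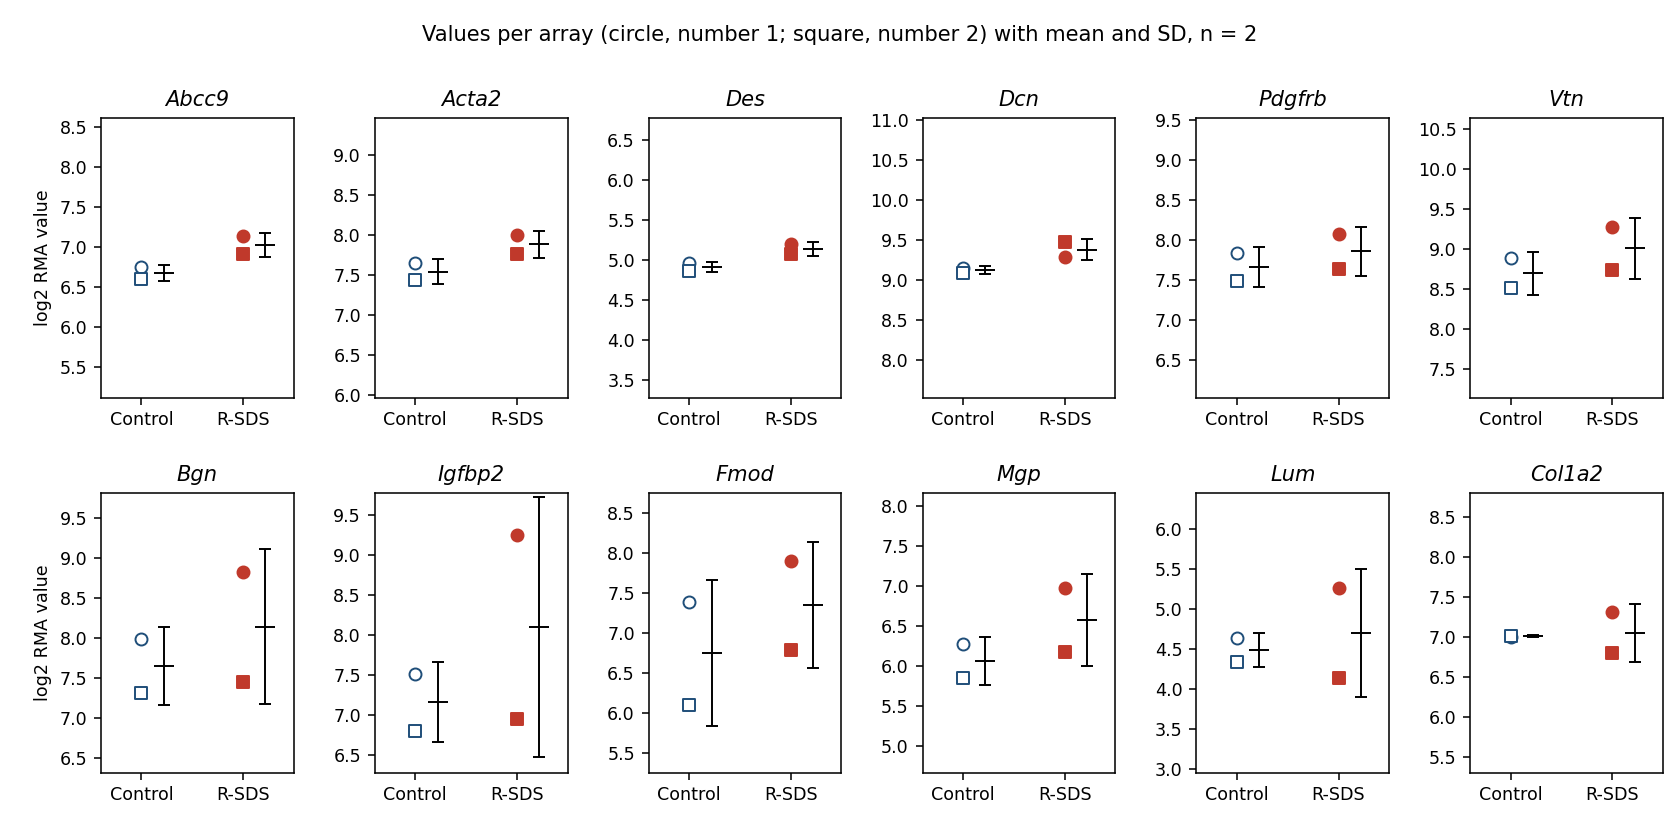
Log2 RMA values (vertical axes, of equal span in all panels) of 12 members in Control and R-SDS arrays, with 1 point per array (circle, number 1; square, number 2) and the mean of each group and its SD over 2 arrays beside them. Both R-SDS points exceed the controls for Abcc9, Acta2, Des and Dcn, and lie on both sides of the control values for Lum and Col1a2.

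All 19 fibroblast genes had a higher mean under R-SDS, or 18 after quantile normalisation, which turned the sign of Ptgds (-0.018). R-SDS 1 was the highest of the 4 arrays in 17 of the 19, where 29.3 percent of all rows had their maximum in that array. Within number 1 all 19 were higher in the R-SDS mouse (51.7 percent of all rows), by 0.13 to 1.73, and within number 2 only 9 were (52.6 percent), by at most 0.69. Without R-SDS 1 the median of the fibroblast members was -0.20 and 15 of the 19 had a lower value in R-SDS 2 than the control mean. It was 0.036 without Control 2 and 0.37 without Control 1, and 0.59 without R-SDS 2, so that the count of higher means rested on R-SDS 1.

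Small leucine-rich proteoglycans bind collagen fibrils and set their spacing, and 5 of them were in the list. Dcn, decorin, was the 1 member of the fibroblast list with both R-SDS arrays above both controls, with 9.16 and 9.09 in controls and 9.29 and 9.47 under R-SDS. In contrast to most fibroblast genes, it was highest in R-SDS 2, and its differences were 0.13 within number 1, 0.38 within number 2 and 0.25 (SE 0.14, 95% interval -0.083 to 0.59; limma adjusted p = 1) between the groups. Which cells of the tissue the Dcn signal came from was not tested. Lum, lumican, is the next protein-coding gene after Dcn and had another pattern, with 4.64 and 4.34 in controls and 5.26 and 4.13 under R-SDS. It was highest in R-SDS 1 and lowest in R-SDS 2 (0.63 and -0.20 within the numbers), and 3 of its 4 values were dim. Bgn, biglycan, measured 7.997 and 7.31 in controls and 8.83 and 7.46 under R-SDS. R-SDS 1 stood 1.17 above the control mean, while R-SDS 2 stood at -0.20 from it, so the difference of 0.49 (SE 0.46) was close to its error. Fmod, fibromodulin, measured 7.40 and 6.10 in controls and 7.91 and 6.80 under R-SDS. Control 1 exceeded R-SDS 2 here, and the 2 controls differed by 1.29, which is more than the group difference of 0.60 (SE 0.51). Within the numbers Fmod was higher in the R-SDS mouse by 0.51 and 0.69, and the latter was the highest value of any member within number 2. Ogn, osteoglycin, differed in the same way, with 6.72 and 6.03 in controls and 7.04 and 6.21 under R-SDS (difference 0.25, SE 0.33).

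Of the secreted proteins, Igfbp2, a binding protein of insulin-like growth factors that meninges and choroid plexus make, had the largest difference of the 33 members, 0.94 (SE 0.70, 95% interval -0.78 to 2.65), with 7.52 and 6.81 in controls and 9.26 and 6.95 under R-SDS. It rested on the value of R-SDS 1, with 1.73 within number 1, 0.14 within number 2 and -0.21 without R-SDS 1. Without R-SDS 2 it was 2.09, from a fit in which the lone R-SDS array is assumed to vary like the controls. Mgp, the matrix Gla protein that keeps vessel walls from calcifying, measured 6.27 and 5.85 in controls and 6.97 and 6.17 under R-SDS. It was higher within both numbers (0.71 and 0.32), and its difference of 0.51 (SE 0.29) was 0.11 without R-SDS 1. Islr, a secreted leucine-rich repeat protein, measured 7.03 and 6.60 in controls and 7.69 and 6.44 under R-SDS, highest in R-SDS 1 and lowest in R-SDS 2. Serping1, the inhibitor of complement C1, and Fbln1, a matrix glycoprotein, had group differences of 0.11 (SE 0.26) and 0.032 (SE 0.19).

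The solute carriers of the leptomeninges were highest in R-SDS 1, then Control 1, and differed in the order of the arrays of number 2. Slc6a13, a transporter of GABA and taurine, measured 7.20 and 6.69 in controls and 7.64 and 6.64 under R-SDS. Slc22a6, an organic anion transporter, measured 6.67 and 6.25 in controls and 6.91 and 6.46 under R-SDS, and Slc13a3, a dicarboxylate transporter that astrocytes also carry, measured 7.81 and 7.20 in controls and 8.10 and 7.33 under R-SDS. Within number 2 the R-SDS value was lower for Slc6a13 (-0.045) and higher for Slc22a6 (0.21) and Slc13a3 (0.13). Their group differences were 0.20 (SE 0.35), 0.22 (SE 0.22) and 0.21 (SE 0.31), each of which turned sign without R-SDS 1 (-0.30, -0.0037 and -0.18). Of the enzymes, Cyp1b1, a cytochrome P450 that oxidises oestrogens and retinoids, measured 5.55 and 5.24 in controls and 5.80 and 5.42 under R-SDS, with 0.25 and 0.18 within the numbers. Aldh1a2, which makes retinoic acid in the meninges, measured 6.31 and 5.94 in controls and 6.76 and 5.86 under R-SDS and differed by 0.45 and -0.079, and Ptgds, the prostaglandin D synthase of meninges, choroid plexus and oligodendrocytes, by 0.17 and -0.17.

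Fibrillar collagens form the bulk of the meningeal matrix, and 3 of their genes were in the list. Col1a1 measured 6.87 and 7.04 in controls and 7.12 and 6.92 under R-SDS, Col1a2 6.998 and 7.01 in controls and 7.31 and 6.79 under R-SDS, and Col3a1 5.85 and 6.10 in controls and 6.04 and 5.97 under R-SDS. All 3 overlapped between the groups, and their differences lay between 0.03 and 0.063. They were higher in the R-SDS mouse within number 1 (0.25, 0.31 and 0.19) but lower within number 2 (-0.12, -0.22 and -0.13). With the collagens, 10 of the 19 fibroblast members were lower within number 2, Lum and Slc6a13 among them. Control 1 exceeded Control 2 in 0 of the 3 collagens, whereas it did in 5 of 5 proteoglycans and 3 of 3 carriers (4 of 5 and 3 of 3 after quantile normalisation), a difference between sets of few genes that was not tested. The limma 95% intervals were -0.30 to 0.42 for Col1a1, -0.43 to 0.52 for Col1a2 and -0.33 to 0.39 for Col3a1.

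**Figure D3:**
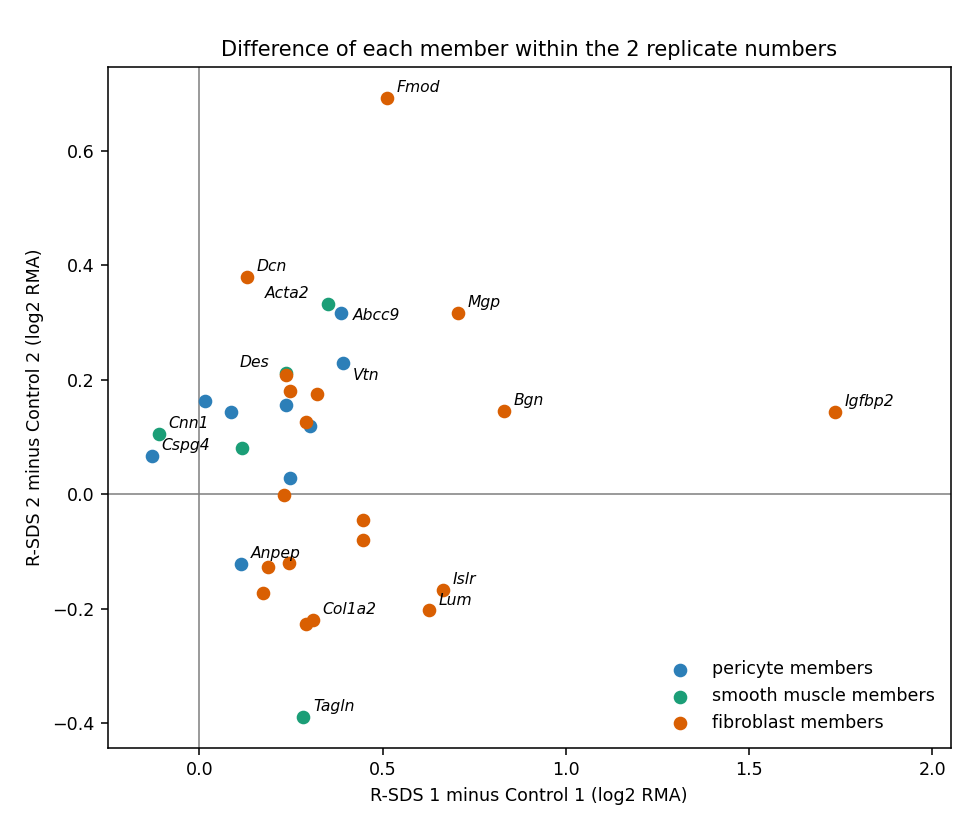
Difference between the R-SDS and the Control mouse of number 1 (horizontal axis) and of number 2 (vertical axis), both in log2 RMA units, with 1 point per member gene and colours for pericyte, smooth muscle and fibroblast members. Fibroblast genes lie to the right of 0 without exception and on both sides of 0 vertically, from -0.23 (Fbln1) to 0.69 (Fmod), while Abcc9 and Acta2 lie near equal differences.

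The same genes also separated mice of 1 group. Control 1 exceeded Control 2 in 15 of 19 fibroblast genes by a median of 0.42 and in 10 of 14 mural genes by a median of 0.057 (51.6 percent of all rows; median over all genes 0.012). After quantile normalisation the medians were 0.50 and 0.13, beside 0.038 over all genes. R-SDS 1 exceeded R-SDS 2 in 18 of 19 fibroblast genes by a median of 0.77 and in 9 of 14 mural genes by 0.17. It did so in 10118 of all 19938 genes, with a median of 0.0054. Quantile normalisation gave 18 of 19 fibroblast, 10 of 14 mural and 12352 of all 19938 genes, with medians of 0.73, 0.20 and 0.069. For the fibroblast genes the medians of 0.42 and 0.77 were larger than the group difference of 0.21. The largest differences between the controls were those of Fmod (1.29), Igfbp2 (0.71), Bgn (0.68) and Ogn (0.68), and between the R-SDS mice those of Igfbp2 (2.30), Bgn (1.37), Islr (1.26) and Lum (1.13). Acta2 differed by 0.22 between the controls and by 0.23 between the R-SDS mice.

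**Figure D4:**
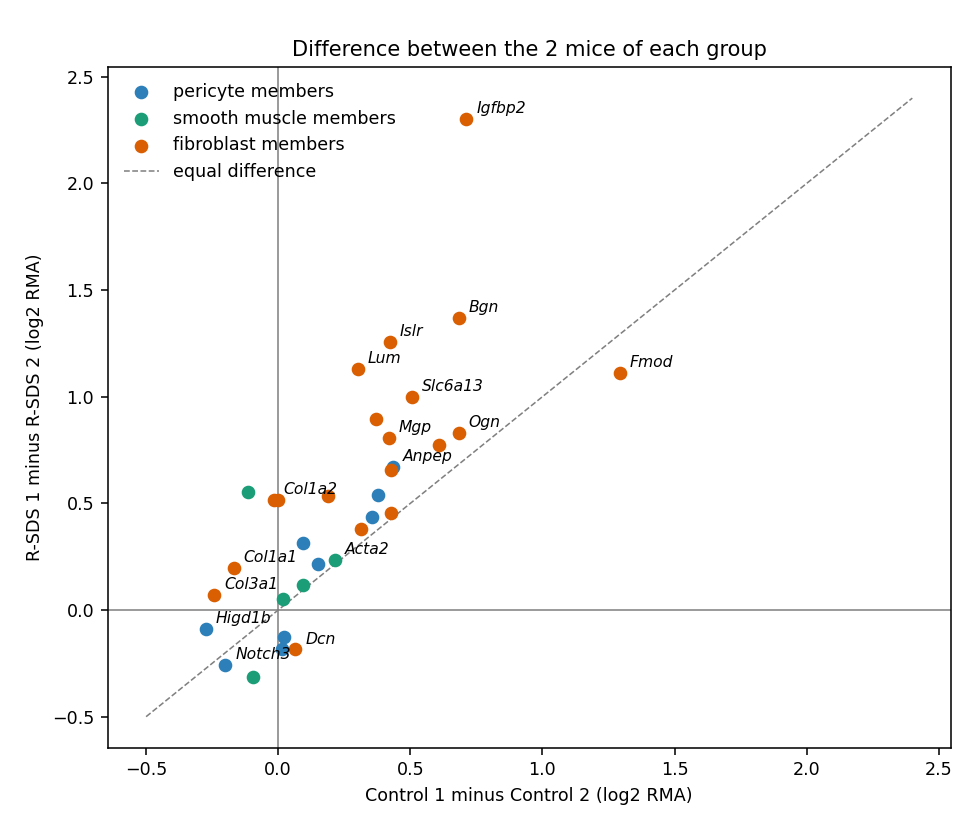
Control 1 minus Control 2 (horizontal axis) and R-SDS 1 minus R-SDS 2 (vertical axis), both in log2 RMA units, with 1 point per member gene, colours as for the kinds of members and a dashed line of equal differences. Most fibroblast genes lie in the upper right, with Igfbp2 at 0.71 and 2.30 and Fmod at 1.29 and 1.11, whereas the collagens lie to the left of 0 and Dcn lies below 0.

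Markers of the choroid plexus, an epithelium that borders the hippocampus and has its own fibroblast-rich stroma, were also highest in R-SDS 1. All 12 measured markers of this list were higher in R-SDS 1 than in the other 3 arrays, and their summed linear signal was 3348 and 648 in controls against 13962 and 934 under R-SDS. That of the fibroblast members was 4798 and 3968 against 6255 and 3972, and that of the mural members 1854 and 1652 against 2179 and 1854. The choroid plexus median was 2.26 within number 1 and -0.025 within number 2, where 6 of the 12 markers were higher in the R-SDS mouse. Ttr, transthyretin, was at 11.38 and 7.43 in controls and 13.21 and 8.79 under R-SDS, and the potassium channel gene Kcnj13 at 7.34 and 5.83 in controls and 10.75 and 5.56 under R-SDS. RMA gives no value of 0 and no detection call was available, so these values do not show whether a marker was present or absent in an array. The brain endothelial sum was 3653 and 3196 against 4443 and 3484, and its median difference was 0.13 within number 1 and 0.082 within number 2. R-SDS values lay above both controls in 4 of the 13 endothelial genes, where 9.41 percent of all rows did so. Among them were Flt1 (difference 0.40) and Emcn (0.37), beside 0.35 for Abcc9 and 0.34 for Acta2. The part of these tissues in the values of the members was not tested.

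Other genes of the same cells and pathways were taken from separate lists, and 0 of them passed the adjusted p or the thresholds of the study in limma. Of 12 other pericyte genes, 7 had a higher mean under R-SDS (median 0.022), led by the proline transporter Slc6a20a (0.36) and the ATPase Atp13a5 (0.17). Of 13 other contractile genes 9 were higher (median 0.053), led by caldesmon, Cald1 (0.26), and leiomodin, Lmod1 (0.21). Of 15 measured signals for the recruitment and upkeep of mural cells 11 were higher (median 0.14), with Eng, an endothelial co-receptor of the TGF-beta family, at 0.34 and the Notch ligand Dll4 at 0.23. These counts stand beside 10653 of 19938 genes with a higher mean. For Eng and Slc6a20a the difference rested on R-SDS 1, as R-SDS 2 stood at -0.088 and -0.045 from the control mean. Both R-SDS arrays were above both controls in 2 of the 12 pericyte, 3 of the 13 contractile and 3 of the 15 recruitment genes. Atp13a5 and Dll4 were among them. Both were below in 1 recruitment gene. Over all rows the shares were 9.41 percent above and 9.06 percent below. R-SDS 2 exceeded the control mean in 3 of the 12 pericyte, 6 of the 13 contractile and 5 of the 15 recruitment genes. It did so in 10001 of all 19938 genes. Cald1 had the R-SDS arrays above both controls, with 7.06 and 7.06 in controls and 7.43 and 7.22 under R-SDS.

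Matrix genes outside the list also differed more within number 1. Of 19 further fibrillar matrix genes, 16 were higher within number 1 (median 0.17) and 7 within number 2 (median -0.061). The largest group difference was that of Col8a1, a short-chain collagen of vessel walls, with 5.57 and 5.64 in controls and 7.47 and 5.48 under R-SDS. Pcolce, an enhancer of procollagen processing, was also high in R-SDS 1 alone, with 6.46 and 6.39 in controls and 7.65 and 6.23 under R-SDS. For both genes the R-SDS 2 value was the lowest of the 4. Of 12 basement membrane genes, 6 were higher (median 0.028), led by Nid2, nidogen 2 (0.76 within number 1 and -0.025 within number 2), and Col18a1 (0.25 and 0.16). Of 15 other meningeal genes, 10 were higher within number 1 and 11 within number 2 (medians 0.25 and 0.11). Slc47a1, an organic cation exporter of the arachnoid, measured 5.40 and 5.37 in controls and 6.15 and 5.58 under R-SDS, above both controls in both R-SDS mice. This held for 3 of the 15 meningeal genes, and 1 was below both controls, where 9.41 and 9.06 percent of all rows were. Slc22a8, an organic anion transporter of meninges and choroid plexus, measured 7.79 and 7.28 in controls and 8.39 and 7.47 under R-SDS.

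**Figure D5:**
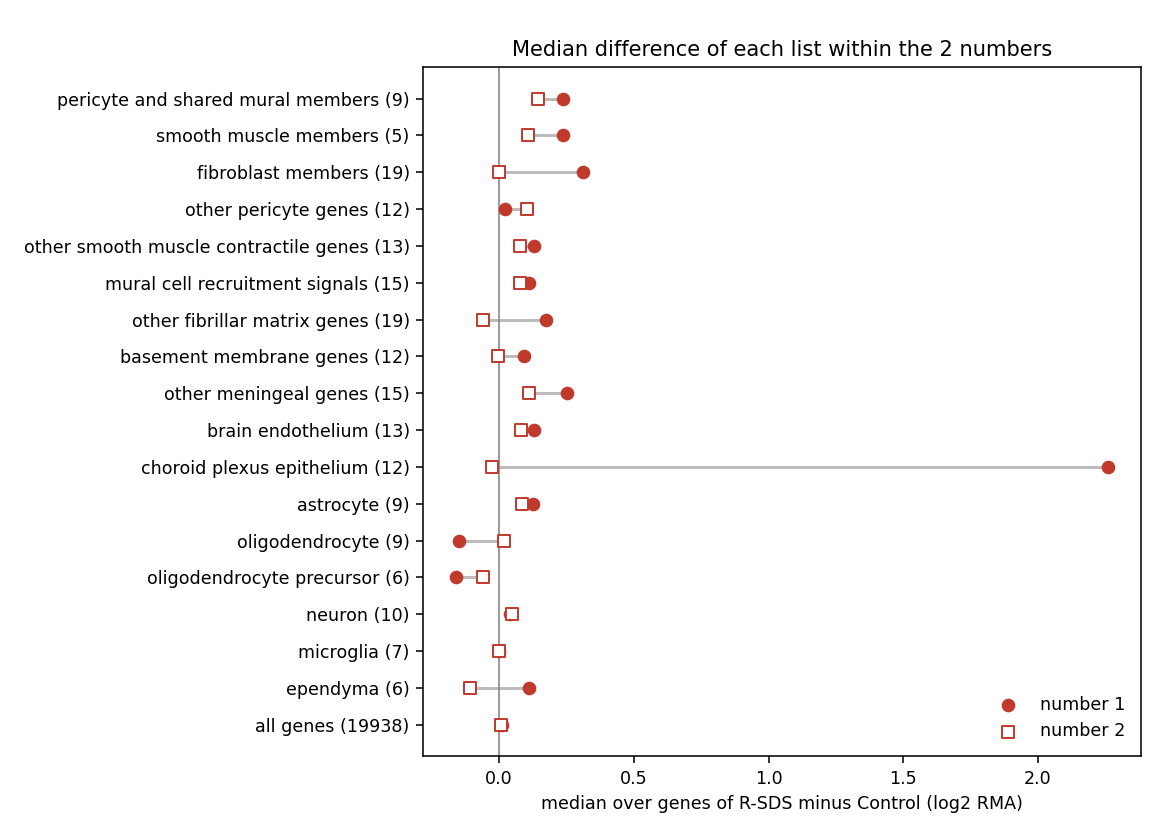
Median over the genes of a list (rows, with the number of measured genes in brackets) of R-SDS minus Control in log2 RMA units, within number 1 (filled circle) and number 2 (open square). The 2 lists of mural members are positive in both numbers, as are brain endothelium (0.13 and 0.082), astrocyte (0.12 and 0.084) and other lists. The fibroblast members stand at 0.31 and -0.0016, and the choroid plexus list spans 2.26 to -0.025.

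Lists of neuronal, glial and ependymal genes had medians between -0.16 and 0.12 within either number. Neuron genes stood at 0.039 and 0.047, astrocyte genes at 0.12 and 0.084, and oligodendrocyte genes at -0.15 and 0.017. The genes with the largest group difference in these 3 lists were Wfs1 (0.11), Aldh1l1 (0.23) and Ermn (-0.19). Of 7 microglia genes 4 were higher and 3 lower (median 0.00011), with C1qa at 0.16. Ependymal genes had medians of 0.11 and -0.11, with group differences of 0.27 for Rsph1 and -0.19 for Tmem212. Both measured red blood cell genes were high in R-SDS 1: Alas2, the haem synthesis enzyme of red cell precursors, measured 5.66 and 5.94 in controls and 7.41 and 5.80 under R-SDS.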

How the data were processed

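Hippocampal RNA of 4 mice was hybridised to Affymetrix Mouse Gene 1.0 ST arrays. The deposited values are log2 values that the authors computed by RMA (Expression Console, per the labels). No genome build is given in the sources used here. The table holds no detection call, so it does not show whether a dim gene was detected. The number of arrays limits the precision. Groups and replicate numbers came from the sample titles, and no label says what a number marks. Of 35556 rows, 21789 had 1 symbol in the platform annotation (19938 genes), and symbols were checked by Entrez identifier against RefSeq (99.6 percent matched, 0 changed). A gene was read from its row with the highest mean. R-SDS and Control were compared in R 4.3.3 with limma 3.58.1 (lmFit and eBayes, two-sided, 2 residual and 4.07 prior degrees of freedom), with Benjamini-Hochberg adjustment over all single-symbol rows and a threshold of 0.05. Intervals are limma's. The fit was tested on simulated data. Members and lists were chosen with earlier results of these data known. All members are named, with up to 2 genes of largest difference per other list, and Ttr and Kcnj13. Alternatives were a replicate block, quantile normalisation, median centring, a filter on dim rows, an intensity trend, the methods' t-test (unpaired), and each array left out. Within-number values, differences between mice of a group and sums after quantile normalisation were added after seeing the data. Promoters came from RefSeq (GRCm38.p6); the 9 members without one are Pdgfrb, Higd1b, Tagln, Myh11, Dcn, Lum, Mgp, Serping1 and Col1a1. Plots were drawn with matplotlib 3.10.9.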

Additional observations from a re-analysis of the deposited data

How the results depend on the processing

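Leaving out 1 array at a time kept the direction of 10 of the 33 members: Rgs5, Abcc9, Vtn, Higd1b, Acta2, Myh11, Des, Dcn, Cyp1b1 and Mgp. It turned the sign of the other 23, of 19 of them without R-SDS 1, and their lowest and highest differences were Pdgfrb (-0.022 to 0.42), Kcnj8 (-0.018 to 0.29), Cspg4 (-0.12 to 0.06), Anpep (-0.34 to 0.33), Notch3 (-0.012 to 0.24), Tagln (-0.33 to 0.23), Cnn1 (-0.16 to 0.15), Lum (-0.35 to 0.78), Bgn (-0.20 to 1.17), Igfbp2 (-0.21 to 2.09), Slc6a13 (-0.30 to 0.70), Slc22a6 (-0.0037 to 0.45), Ogn (-0.17 to 0.66), Islr (-0.38 to 0.88), Fmod (-0.045 to 1.25), Aldh1a2 (-0.26 to 0.63), Fbln1 (-0.23 to 0.29), Serping1 (-0.21 to 0.44), Col1a1 (-0.036 to 0.16), Col1a2 (-0.21 to 0.30), Col3a1 (-0.091 to 0.15), Ptgds (-0.27 to 0.27) and Slc13a3 (-0.18 to 0.59). The medians ran from 0.060 to 0.29 for the pericyte, from 0.089 to 0.23 for the smooth muscle and from -0.20 to 0.59 for the fibroblast members. Quantile normalisation turned Anpep (0.0069), Cnn1 (0.028) and Ptgds (-0.018), and median centring Anpep (0.012) and Cnn1 (0.014). Quantile normalisation left 4 of the 7 members without overlap between the groups. Without dim rows the smooth muscle median was 0.34, from the 1 gene left, Acta2. Each member had a single row, so no other row could be tried. Members called at the adjusted p numbered 0 to 1 when arrays were left out, and 0 otherwise. Over all rows, calls at the adjusted p were 0 to 46 higher and 0 to 3 lower without 1 array, the most without R-SDS 2, and 1 lower after median centring. At the thresholds of the study the 32 higher and 42 lower rows became 74 to 416 and 67 to 323 without 1 array, 5 and 1 without dim rows, and 6 and 13 with the methods' t-test. With the replicate number as a block, 54 rows were higher and 46 lower, and 6 of the 33 members had an unadjusted p under 0.05, where 4.81 percent of all rows did, with 0 at the adjusted p. The deviations of Control 1 and R-SDS 1 from their group means correlated at 0.52 across rows, which are not independent. The labels do not say that a number pairs mice, so the arrays share only a number, and the block leaves 1 residual degree of freedom.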
